A study of Homo sapiens with 14 samples.

Results

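The genes described here are those of major histocompatibility complex (MHC) class I antigen presentation, followed through long-term culture of colorectal cancer cells. They are 9 genes of 36601 in the single-cell matrices and of 60624 in the bulk tables, taken by symbol: the heavy chains HLA-B, HLA-C, HLA-E and HLA-F, the light chain B2M, the peptide transporter subunit TAP1, the loading factor TAPBP, and the immunoproteasome subunits PSMB8 and PSMB9. The study grew SW620 cells without passage for up to 15 days, so that they formed colonies from which single cells later left. SW620 is an established line from a lymph node metastasis of a colorectal adenocarcinoma, and SW480 is a line from the primary tumour of the same patient. SW620-TET2CD overexpresses the catalytic domain of TET2, an enzyme that oxidises 5-methylcytosine in DNA, and the study's figures call its control SW620-FLAG, after an empty FLAG vector, where the sample labels say SW620. Each of SW620 and SW620-TET2CD gave 1 single-cell RNA-seq library on day 6, day 9, day 12 and day 15. Bulk RNA-seq covered SW480 and SW620 on day 6, and on day 15 the cells inside and outside the colonies of each line, with 1 library each. Whether the bulk SW620 culture of day 6 carried the vector is not given in the labels, and the inside and outside cells of a line may come from 1 culture. The cultures held cell lines alone, and no label names a cytokine treatment.

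MHC class I molecules show short peptides from inside the cell to CD8+ T cells and, through HLA-E, to natural killer cells. Proteasomes cut proteins into peptides, the TAP transporter carries these into the endoplasmic reticulum, tapasin (TAPBP) holds empty heavy chains and B2M beside it, and loaded complexes move to the surface. Interferon signalling raises these genes together through interferon response elements and, for the heavy chains and B2M, through the coactivator NLRC5, and it exchanges the catalytic proteasome subunits PSMB6 and PSMB5 for PSMB9 and PSMB8. Colorectal tumours often lose part of this pathway.

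Of the 9 genes, all but HLA-E have an entry in the RefSeq promoter table of GRCh38.p14. The 250 bases before the start site are shown for the heavy chains HLA-B, HLA-C and HLA-F and for TAP1 and PSMB9, which start 488 bases apart on opposite strands. Each is written 5′ to 3′ on the strand of its gene, and capitals mark matches on either strand to 4 motifs: the interferon-stimulated response element (GAAA, any pair of bases, GAAA), the kappa B element (GGGGA followed by TTCCC), the X2 box (TGACGC) and the CCAAT box (CCAAT). Positions give the leftmost base of a match, with the start site as 0. The windows are chr6:31357180-31357429 (minus strand) for HLA-B, chr6:31272093-31272342 (minus) for HLA-C, chr6:29723184-29723433 (plus) for HLA-F, chr6:32853705-32853954 (minus) for TAP1 and chr6:32853942-32854191 (plus) for PSMB9.
HLA-B: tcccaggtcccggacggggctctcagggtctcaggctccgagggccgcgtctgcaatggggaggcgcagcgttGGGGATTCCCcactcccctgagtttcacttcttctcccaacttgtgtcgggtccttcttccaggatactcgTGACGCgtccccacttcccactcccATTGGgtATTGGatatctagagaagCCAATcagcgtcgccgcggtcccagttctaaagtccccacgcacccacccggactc
HLA-C: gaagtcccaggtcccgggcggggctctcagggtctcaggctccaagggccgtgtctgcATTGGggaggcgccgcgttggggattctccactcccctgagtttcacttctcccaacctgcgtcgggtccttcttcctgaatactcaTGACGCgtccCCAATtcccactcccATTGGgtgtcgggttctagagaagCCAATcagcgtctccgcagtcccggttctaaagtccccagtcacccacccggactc
HLA-F: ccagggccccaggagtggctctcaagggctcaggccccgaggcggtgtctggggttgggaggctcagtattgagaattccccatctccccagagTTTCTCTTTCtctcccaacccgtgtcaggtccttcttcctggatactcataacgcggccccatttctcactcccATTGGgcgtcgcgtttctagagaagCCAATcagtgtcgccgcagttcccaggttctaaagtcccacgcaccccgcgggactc
TAP1: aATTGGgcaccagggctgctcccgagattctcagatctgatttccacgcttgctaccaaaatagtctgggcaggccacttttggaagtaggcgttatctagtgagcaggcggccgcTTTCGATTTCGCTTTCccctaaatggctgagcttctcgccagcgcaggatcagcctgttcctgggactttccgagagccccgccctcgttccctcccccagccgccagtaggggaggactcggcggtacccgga
PSMB9: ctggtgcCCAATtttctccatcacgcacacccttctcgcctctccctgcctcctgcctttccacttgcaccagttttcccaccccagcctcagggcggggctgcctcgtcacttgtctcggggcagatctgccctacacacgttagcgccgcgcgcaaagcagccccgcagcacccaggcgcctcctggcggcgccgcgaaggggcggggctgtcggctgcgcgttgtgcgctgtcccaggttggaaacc

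HLA-B and HLA-C were 89% identical over this window, and HLA-F was 80.4% identical to HLA-B. The HLA-B window held the exact kappa B letters at -177 from the start and the X2 letters at -106, with 3 CCAAT matches. The HLA-C window held X2 and 4 CCAAT matches without the exact kappa B letters, and the HLA-F window held the interferon element at -156 and 2 CCAAT matches. TAP1 had 1 CCAAT match and a pair of overlapping interferon elements at -134 and -128, and B2M and TAPBP also had 2 each. PSMB9 had 1 CCAAT match and 1 match to ACGTG, the core letters of the hypoxia response element, which are not capitalised, and PSMB8 had none of the motifs searched. The TAP1 and PSMB9 windows share 13 bases, and their CCAAT matches are the same bases read on opposite strands. Among 35116 promoter windows of this length, 3.02% held the interferon element, 0.0683% the kappa B letters, 7.67% X2, 32% CCAAT and 18.5% ACGTG. These matches describe letters, not bound sites. The HLA heavy chains, TAP1, TAPBP, PSMB8 and PSMB9 lie in the MHC on chromosome 6 and B2M on chromosome 15 (44711358 to 44718851, GENCODE on GRCh38). The annotated span of TAP1 (32845209 to 32853816) lies wholly within that of PSMB9 (32844136 to 32859851) on the opposite strand, and 544 bases of PSMB8 lie there too. These are spans of whole genes, and whether their transcripts share bases was not tested. Of the 75-base stretches in HLA transcripts, 0.188% in HLA-B, 1.33% in HLA-C, 1.7% in HLA-E and 0% in HLA-F also occurred in another HLA gene.

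Of 67056 barcodes, 48282 passed the study's limits on genes, unique molecular identifiers (UMIs) and mitochondrial share, more than the study's own count, with 3894 to 8154 cells and a median of 6640 to 13479 UMIs per library. Levels are CPM (counts scaled per 1e6 UMIs of the library), from UMIs summed over the kept cells, and 3 counts stood for 0.0404 to 0.0623 CPM. Pairs of libraries shared 1 to 23 barcodes. Epithelial markers were present throughout, with 9548 to 14106 CPM over 10 genes, against 8.13 to 58.3 CPM for 10 immune markers and 9.60 to 29.1 CPM for 10 stromal and endothelial markers. Cells with at least 3 UMIs in 20 cell cycle genes made up 83.2% to 93.5% of the early libraries (days 6 and 9) and 14.0% to 38.8% of the late ones (days 12 and 15). The 6 bulk libraries held 16470200 to 25840600 expected counts.

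Between early and late days, 5 of the 9 genes rose and none fell: HLA-B, HLA-E, HLA-F, PSMB8 and PSMB9. The rise ranged from 0.45 on the log2 scale for PSMB8 to 2.54 for HLA-F, and the level of HLA-C was nearly the same. Of 16526 genes tested, 58.0% passed the same test in either direction 29.4% were higher and 28.6% lower, so that a shift with time was common. The median log2 fold change was 0.45 over the 9 genes and 0.04 over all genes.

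HLA-B, a classical heavy chain that presents peptides to T cells, was at 3.66, 6.58, 21.8 and 29.4 CPM in SW620 on days 6, 9, 12 and 15, and at 5.77, 8.57, 22.7 and 31.1 CPM in SW620-TET2CD. Every late library lay above every early one, and the order of the days was the same in each line. The log2 fold change of late against early days, with line as a block, was 2.02 (SE 0.23, adjusted p = 7.21e-05). HLA-F, a non-classical heavy chain, was the scarcest of the 9, at 0.406, 0.459, 2.58 and 3.03 CPM in SW620 and at 0.458, 0.524, 2.55 and 3.43 CPM in SW620-TET2CD. It too was apart between early and late libraries, with a log2 fold change of 2.54 (SE 0.20, adjusted p = 1.21e-05). HLA-E, which carries leader peptides of other heavy chains to natural killer cell receptors, was at 14.7, 17.5, 52.9 and 66.0 CPM in SW620 and at 21.7, 19.0, 44.8 and 69.4 CPM in SW620-TET2CD, a log2 fold change of 1.58 (SE 0.18, adjusted p = 6.47e-05). HLA-C, the other classical heavy chain of the list, stood at 176, 169, 195 and 199 CPM in SW620 and at 181, 197, 208 and 174 CPM in SW620-TET2CD. Its early and late libraries overlapped, and the log2 fold change was 0.00 (SE 0.12, adjusted p = 0.988).

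B2M, the light chain common to all class I molecules, was at 434, 330, 505 and 581 CPM in SW620 and at 392, 372, 463 and 463 CPM in SW620-TET2CD. All 4 late libraries were above all 4 early ones, but the log2 fold change of 0.29 (SE 0.14) did not pass (adjusted p = 0.101). TAP1, a chain of the peptide transporter, stayed between 6.73 and 8.28 CPM in all 8 libraries, with a log2 fold change of 0.02 (SE 0.12, adjusted p = 0.917). TAPBP was at 23.1, 28.3, 33.2 and 39.3 CPM in SW620 and at 26.6, 29.7, 32.7 and 39.8 CPM in SW620-TET2CD, apart between early and late, at a log2 fold change of 0.33 (SE 0.13) just outside the threshold (adjusted p = 0.0524).

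PSMB9 and PSMB8, catalytic subunits of the immunoproteasome, rose. PSMB9 was at 1.35, 2.33, 4.79 and 5.56 CPM in SW620 and at 2.53, 3.32, 4.40 and 5.55 CPM in SW620-TET2CD, a log2 fold change of 1.02 (SE 0.24, adjusted p = 0.00429). PSMB8 was at 18.0, 23.5, 34.1 and 32.6 CPM in SW620 and at 21.1, 25.6, 32.6 and 30.0 CPM in SW620-TET2CD, a log2 fold change of 0.45 (SE 0.14, adjusted p = 0.0153). In all, 7 of the 9 genes had every late library above every early one, the exceptions being HLA-C and TAP1, and 29.9% of all tested genes were apart in that direction.

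**Figure D1:**
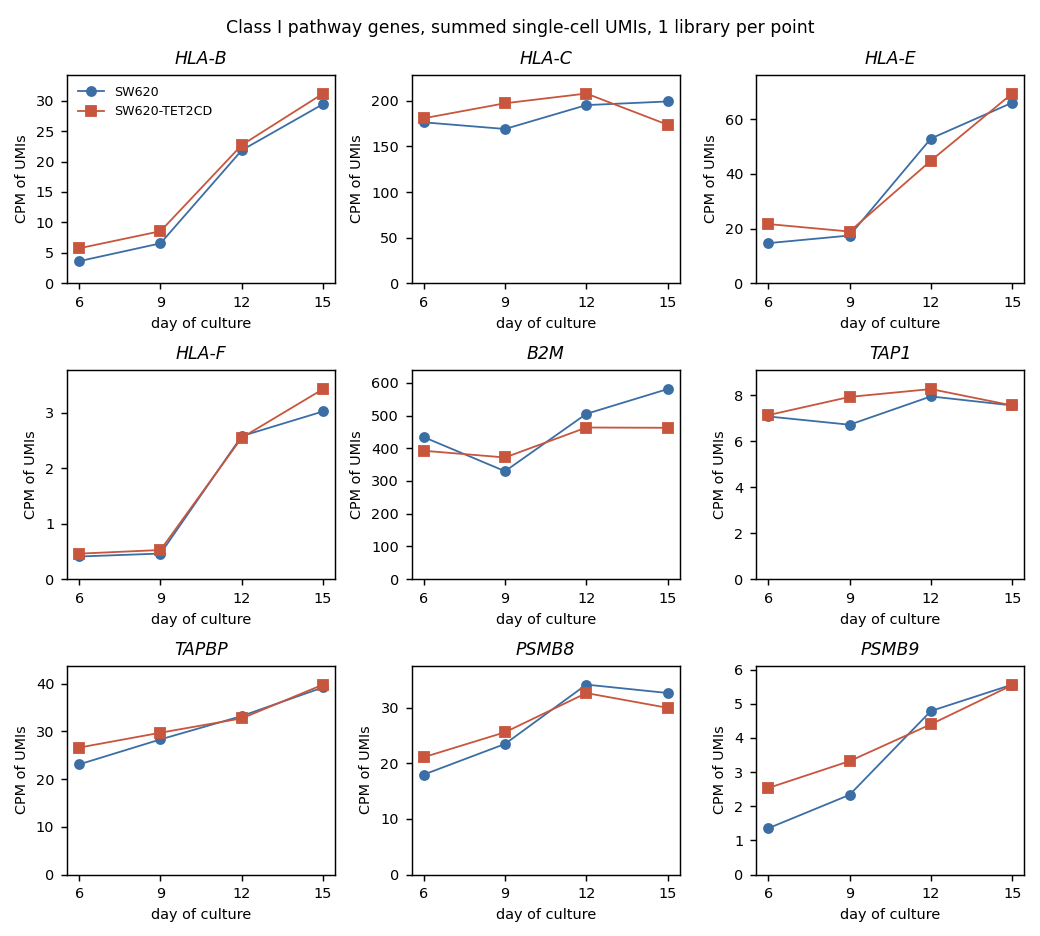
Level of each of the 9 genes in CPM of summed UMIs (vertical axes, from 0) on days 6, 9, 12 and 15 (horizontal axes), with 1 point per library, for SW620 and SW620-TET2CD. HLA-B climbs from 3.66 to 29.4 CPM in SW620, while HLA-C stays between 169 and 208 CPM over the 8 libraries.

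The share of cycling cells, the hypoxia genes and the summed immune and stromal markers moved with the same days. The summed immune markers were at 8.13 to 18.0 CPM in early and at 24.5 to 58.3 CPM in late libraries. CD68, a macrophage marker, was at 1.20 to 1.88 and 3.61 to 36.9 CPM, and LYZ at 5.32 to 15.9 and 13.5 to 31.5 CPM. FCER1G had 14 to 21 UMIs in early and 5 to 9 in late libraries, and MS4A1 was at 0 in all 8. Of 5 immune markers tested, 2 were higher late and 1 lower, against 29.4% and 28.6% of all genes. The summed stromal and endothelial markers were at 17.4 to 29.1 CPM in early and at 9.60 to 13.5 CPM in late libraries. Of 6 of them tested, 3 were higher late and 1 lower. The part of the immune, stromal and endothelial markers in the result was not tested. All 20 cycle genes were lower late (median log2 fold change -2.60) and 16 of 20 hypoxia genes were higher (median 2.04). In cells without a UMI in any cycle gene, the late against early difference was 1.31 for HLA-B (SE 0.25, adjusted p = 0.00151), 0.98 for HLA-E (SE 0.17, adjusted p = 8.21e-04) and 1.04 for PSMB9 (SE 0.37, adjusted p = 0.0449), from 64, 194 and 14 UMIs in the early libraries. In that fit 26.1% of genes were called and 14.1% were higher. PSMB8 did not pass there (0.18, SE 0.18, adjusted p = 0.495), nor did it without the SW620 library of day 6 (0.33). HLA-F had 0 UMIs among 5761596 in such early cells and 180 in late ones, at 2.36 to 2.98 CPM by late library. Cells of this kind numbered 58 to 512 in early and 1024 to 3222 in late libraries, so the 0 and the 180 are not from equal depth. Whole early libraries had HLA-F at 0.406 to 0.524 CPM. Upper-quartile scaling moved the median of all genes from 0.04 to 0.21, and B2M (0.46) and TAPBP (0.49) passed with it, where 37.8% of genes were higher and 22.0% lower.

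**Figure D2:**
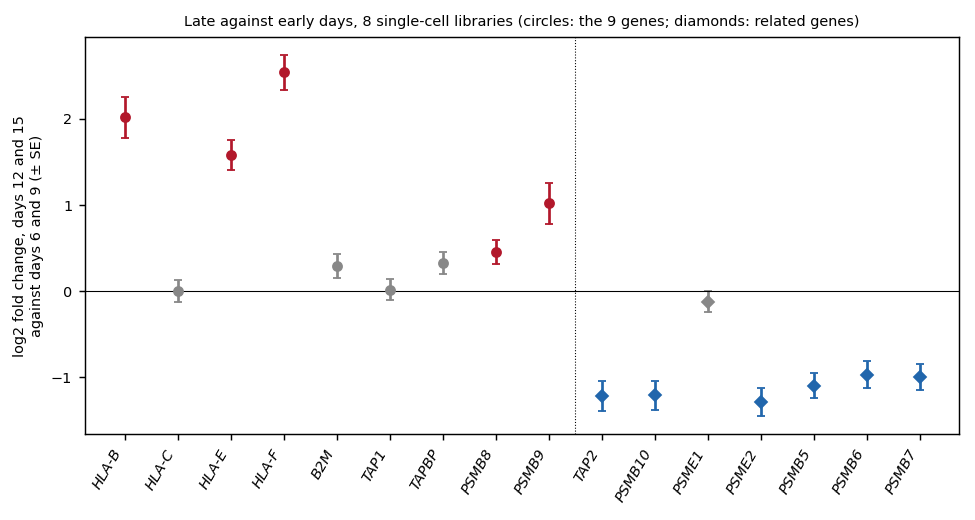
Log2 fold change of late (days 12 and 15) against early (days 6 and 9) single-cell libraries on the vertical axis, with bars of 1 SE, for the 9 genes (circles) and 7 related genes (diamonds) on the horizontal axis, coloured where the adjusted p is under 0.05. HLA-F, HLA-B and HLA-E lie highest at 2.54, 2.02 and 1.58, and TAP2, PSMB10 and PSME2 lie below -1.

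The same test was read for other genes of the pathway, where all genes were at 29.4% higher and 28.6% lower. Of 15 tested genes from a list of 16 further class I genes, 2 were higher and 6 lower, with a median of -0.12. TAP2, the partner of TAP1 in the transporter, was at 10.7, 8.16, 4.79 and 3.69 CPM in SW620 and at 11.1, 9.00, 5.67 and 3.96 CPM in SW620-TET2CD, and fell by 1.22 on the log2 scale (SE 0.17, adjusted p = 2.31e-04). PSMB10, the remaining inducible catalytic subunit, fell by 1.21 (SE 0.17) and the proteasome activator subunit PSME2 by 1.29 (SE 0.16), while PSME1 stayed between 112 and 140 CPM. The chaperone CALR fell by 1.64 and the nuclear proteasome activator PSME3 by 1.37. All 10 constitutive proteasome genes fell, with a median of -0.98, among them the catalytic subunits PSMB5 (-1.09), PSMB6 (-0.97) and PSMB7 (-0.99).

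The PSMB9 and PSMB6 pair compares an inducible catalytic subunit with the one it replaces. In UMIs, PSMB9 stood at 0.279, 0.548, 2.01 and 2.16 per 100 of PSMB6 in SW620 on days 6 to 15, and at 0.502, 0.770, 1.44 and 2.62 in SW620-TET2CD. PSMB8 stood at 6.16, 9.08, 23.7 and 23.0 per 100 of PSMB5 in SW620 and at 6.96, 9.37, 20.2 and 25.4 in SW620-TET2CD. Both ratios were higher in all 4 late libraries than in all 4 early ones. PSMB10 per 100 of PSMB7 lay between 30.9 and 45.9, with no such separation. HLA-B, set against HLA-C in the same way, went from 2.07 to 14.8 UMIs per 100 of HLA-C in SW620 and from 3.19 to 17.9 in SW620-TET2CD.

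**Figure D3:**
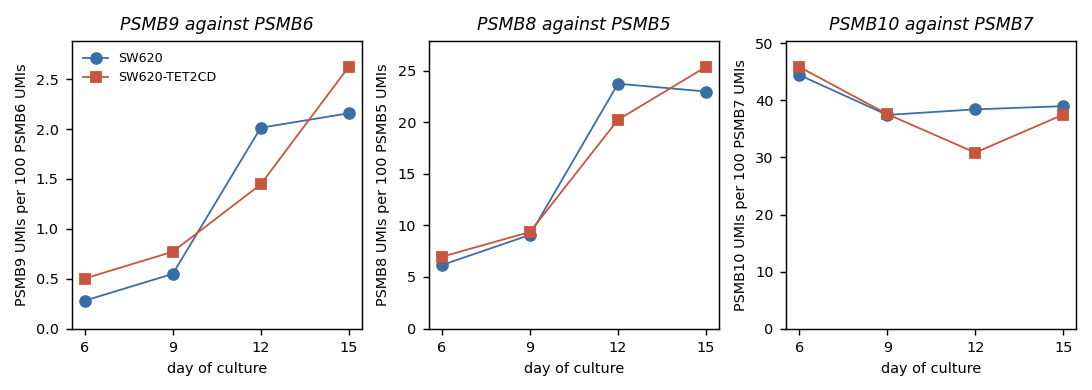
UMIs of each inducible proteasome subunit per 100 UMIs of its constitutive counterpart (vertical axes, from 0) by day for SW620 and SW620-TET2CD, with 1 point per library. PSMB9 to PSMB6 and PSMB8 to PSMB5 are higher on days 12 and 15, while PSMB10 to PSMB7 lies between 30.9 and 45.9 throughout.

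Among 21 regulators of class I genes, 7 were higher and 7 lower late, close to the shares over all genes (29.4% and 28.6%). The interferon gamma receptor chain IFNGR2 (1.00), the kinase JAK1 (0.83) and the interferon regulatory factor IRF1 (0.38, adjusted p = 0.0169) were higher. The transcription factor subunits NFKB1 (-1.0) and NFYC (-0.71) were among the lower. NLRC5 was at 0.132 to 0.717 CPM and its log2 fold change of -0.77 (SE 0.32) did not pass (adjusted p = 0.0572). Of 18 tested genes from a list of 24 interferon-stimulated genes, 6 were higher and 3 lower, with a median of 0.04, the value of all genes, and IFI35 (1.55) and STAT2 (0.81) were among the higher. Of 8 tested ligands of natural killer cell receptors, 4 were higher and 1 lower, against 58.0% of all genes called in either direction, including NECTIN2 (0.58) and PVR (-0.38). Of 4 tested class II genes, 2 were higher and 1 lower, with HLA-DQB1 at 1.40 and HLA-DMA at 0.37.

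At a fixed depth of 2000 UMIs per cell, the share of cells with a UMI ran from 0.742% to 5.82% over the 8 libraries for HLA-B, from 3.04% to 12.9% for HLA-E, from 0.0543% to 0.722% for HLA-F and from 0.253% to 1.25% for PSMB9. Without thinning, HLA-B was seen in 4.10% to 19.7% of cells. HLA-C (28.7% to 33.2% at 2000 UMIs) and B2M (47.4% to 67.0%) were the most widely detected. A thinned cell showed a mean of 0.930 to 1.03 of the 9 genes in early libraries and 1.21 to 1.35 in late ones. Free RNA was not removed, and a share of cells with a UMI is not a share of cells that use the gene.

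Within libraries, cells with at least 3 UMIs in cycle genes were set against cells with 0, with library as a block. The cells with 0 numbered 58 to 512 in early and 1024 to 3222 in late libraries, with lower median UMIs than the cycling cells in each library. In SW620 on day 6 they held 15 UMIs of HLA-E and 23 of TAPBP. HLA-E was lower in the cycling cells by a log2 fold change of -0.68 (adjusted p = 2.69e-06) and TAPBP by -0.40 (adjusted p = 3.09e-04), each in 8 of 8 libraries, while the other 7 did not pass. These 2 of 9 compare with 46.6% of genes called in either direction and 24.3% lower. In the same cells TAP2 (0.74), PSME2 (0.56) and 8 of 10 constitutive proteasome genes were higher, as were 22.3% of all genes. For the upper against the lower tercile of cells by their share of UMIs in hypoxia genes, 11.7% of genes were called (6.08% higher and 5.58% lower) and none of the 9. Of the 9, 6 had an unadjusted p under 0.05, as had 4533 of all 14188 genes tested. DESeq2 called 2 of the 9, HLA-C (0.23) and B2M (0.17), where it called 17.3% of all genes. HLA-B differed by 0.46 (adjusted p = 0.0998), higher in the upper tercile in 5 of 8 libraries. The folds of HLA-B were 0.899, 0.634, 1.3 and 0.991 in the 4 early libraries and 1.74, 2.21, 1.70 and 1.63 in the 4 late ones. Those of HLA-E ran from 0.736 to 1.26 in early and from 1.47 to 1.70 in late libraries. The median UMIs of the upper tercile were above those of the lower in the 4 early libraries and below them in the 4 late ones. In SW620 they were 14391 against 12152 on day 6 and 5903 against 7947 on day 15. The part of depth in these folds was not tested. Whether the class effect differed between early and late days was not tested.

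Between SW620-TET2CD and SW620 over the 4 days, none of the 9 genes passed, while 4.21% of all genes did (2.37% higher and 1.85% lower). An unadjusted p under 0.05 was found for 2416 of all 16526 genes, none of them among the 9. The log2 fold changes of the 9 lay between -0.21 (B2M) and 0.19 (PSMB9), and DESeq2 called none of the 9 either. With each library left out, B2M ran from -0.31 to -0.066 and HLA-B from 0.036 to 0.31. The difference of late against early days between the lines was negative for all 9 (median -0.34, against 0.01 over all genes), but no gene passed that test in the whole table. Of all genes, 130 had an unadjusted p under 0.05, none of them among the 9, and DESeq2 called 0. The TET2 transcripts themselves were at 107, 59.5, 40.2 and 41.6 CPM in SW620-TET2CD by day, against 2.11 to 3.90 CPM in SW620.

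Within the SW620-TET2CD libraries the TET2 UMIs were unevenly spread over cells, and 7 of the 9 genes differed between cells with many and with none. Cells with at least 3 TET2 UMIs numbered 1052, 595, 267 and 246 on days 6, 9, 12 and 15, or 12.9%, 9.23%, 6.86% and 4.18% of cells, and were set against 5880, 4895, 3131 and 4874 cells with 0. In the TET2-high cells these 7 were higher and none of the 9 was lower, where 8.87% of 14964 genes were higher, 7.60% lower and 16.5% called in either direction. The median log2 fold change was 0.69 over the 9 and -0.01 over all genes.

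HLA-B rose in TET2-high cells from 3.58 to 13.8 CPM on day 6, from 6.36 to 19.6 on day 9, from 17.8 to 51.8 on day 12 and from 26.2 to 72.7 on day 15. The fold was 2.78 to 3.85 by day, on top of the increase with time, and the log2 fold change was 1.54 (SE 0.09, adjusted p = 3.59e-07). PSMB9 went from 1.46 to 6.40, from 2.45 to 7.34, from 3.53 to 9.87 and from 4.39 to 14.1 CPM, a log2 fold change of 1.64 (SE 0.15, adjusted p = 1.20e-05). PSMB8 went from 18.1 to 32.0, from 22.9 to 36.6, from 31.3 to 45.1 and from 27.3 to 47.4 CPM, a log2 fold change of 0.62 (SE 0.07, adjusted p = 9.47e-05). Each of the 3 was higher in TET2-high cells of all 4 days.

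TAP1, level over time in the whole libraries, went from 5.87 to 11.8, from 7.08 to 9.21, from 7.55 to 15.5 and from 6.66 to 15.9 CPM between TET2-zero and TET2-high cells, a log2 fold change of 0.81 (SE 0.14, adjusted p = 0.00145). HLA-C, also level over time, went from 163 to 243, from 184 to 251, from 194 to 300 and from 163 to 250 CPM (0.48, SE 0.05, adjusted p = 4.97e-05). HLA-E went from 17.1 to 37.6, from 15.7 to 31.9, from 42.1 to 59.2 and from 65.9 to 90.4 CPM (0.69, SE 0.11, adjusted p = 8.75e-04). The difference in HLA-E and HLA-C had the same direction on all 4 days. HLA-F went from 0.385 to 1.19, from 0.516 to 0.667, from 2.30 to 4.0 and from 2.71 to 6.51 CPM (0.97, SE 0.26, adjusted p = 0.0226), and lost its call without the library of day 6 (0.84), day 12 (1.05) or day 15 (0.89). Its values in TET2-high cells rested on 13, 5, 15 and 18 UMIs by day. B2M went from 390 to 414, from 376 to 359, from 463 to 476 and from 452 to 537 CPM (-0.01), and TAPBP from 26 to 27.5, from 28.8 to 34.8, from 32.6 to 33.6 and from 39.7 to 33.3 CPM (-0.02). Neither passed, and in CPM each was higher in TET2-high cells on 3 of 4 days.

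**Figure D4:**
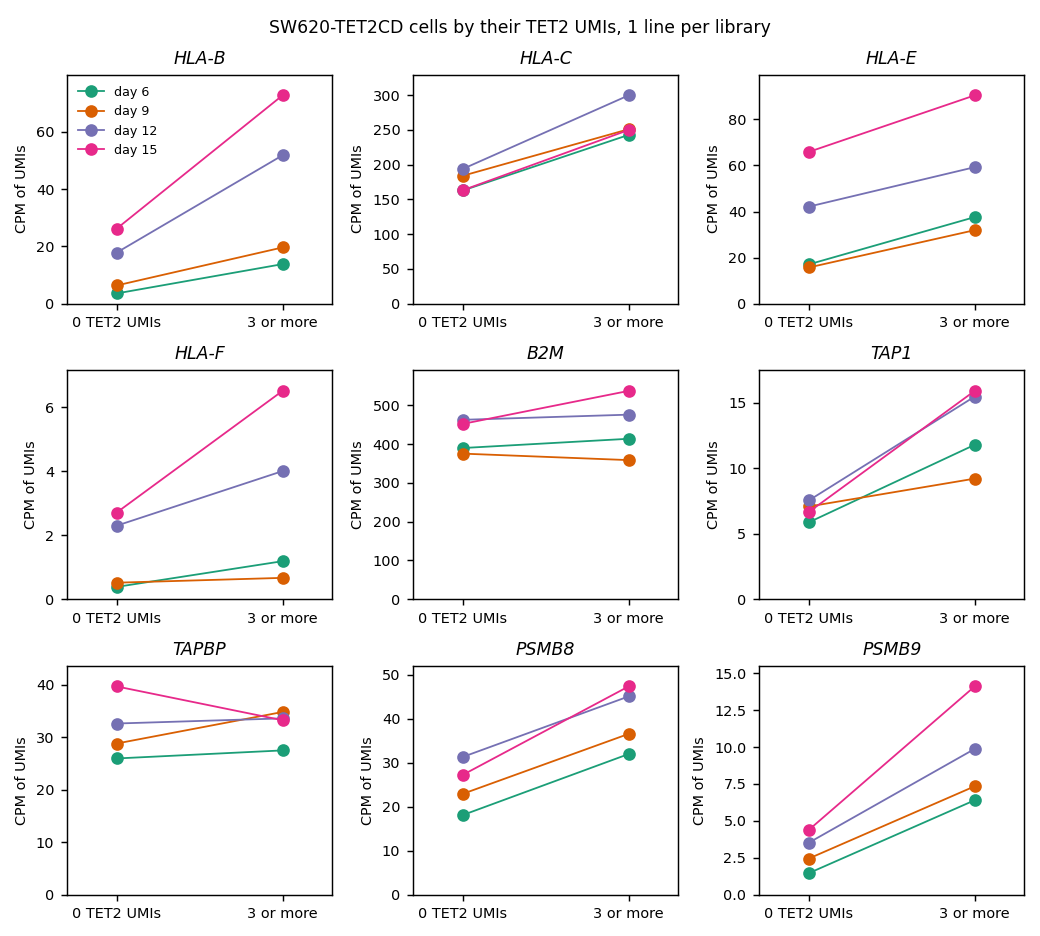
Level in CPM (vertical axes) of the 9 genes in TET2-zero and TET2-high cells of the 4 SW620-TET2CD libraries, joined within a library. HLA-B and PSMB9 rise on each of the 4 days, by 2.78 to 3.85 and 2.80 to 4.37 times, while B2M and TAPBP move either way.

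NLRC5, at 0.353 to 0.717 CPM in the whole SW620-TET2CD libraries, was also higher in TET2-high cells (1.48, SE 0.34, adjusted p = 0.00988), from 10, 14, 4 and 4 UMIs in those cells on the 4 days, as were PSME2 (0.29), the factor IRF2 (0.51), the natural killer ligand MICA (0.51) and the interferon-induced membrane protein IFITM3 (0.62). JAK1 (-0.39), the ubiquitin-like modifier ISG15 (-0.47) and HLA-DQB1 (-0.66) were lower. By list, 5 of 18 interferon-stimulated genes were higher and 1 lower, 2 of 21 regulators higher and 2 lower, 2 of 8 natural killer ligands and 1 of 15 further class I genes higher and none lower, and 1 of 4 class II genes higher and 1 lower. The higher class II gene, named after its value was seen, was the invariant chain CD74 (3.89). The 10 constitutive proteasome genes did not pass. TET2-high cells were deeper, with median UMIs of 10002, 12447, 14163 and 11132 by day against 8405, 10991, 12218 and 8042, and in cells of 5000 to 15000 UMIs, a range set after seeing the data, the same 7 genes passed, where 8.73% of genes were higher. The summed immune markers were at 33.5 to 55.7 CPM in TET2-high cells against 9.78 to 44 CPM in TET2-zero cells. Most of this came from the lysozyme gene LYZ, at 30.3 to 48.8 against 7.30 to 26.3 CPM. The macrophage marker CD68 was at 0.934 to 5.79 against 1.24 to 16.8 CPM. Of 2 immune markers tested, 1 was higher and 1 had a negative log2 fold change that did not pass. The endothelial marker PECAM1 was at 1.33 to 3.75 against 0.209 to 0.597 CPM, and of 3 stromal and endothelial markers tested 1 was higher and 1 lower. The B cell gene MS4A1 had 0 UMIs in every library and the leukocyte gene PTPRC at most 1. The part of LYZ, CD68 and PECAM1 in these differences was not tested.

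In SW620 few cells had a TET2 UMI, 124 to 184 per library, and there only B2M differed, lower by a log2 fold change of -0.17 (adjusted p = 0.00823), where 3.33% of genes were called. A test added after seeing the data took the difference between the lines in the effect of having a TET2 UMI, and called 5.20% of 15178 genes. It called 5 of the 9, all more positive in SW620-TET2CD (3.56% of genes were): HLA-B at 1.26 (SE 0.18), PSMB9 at 1.29, HLA-E at 0.65, PSMB8 at 0.48 (adjusted p = 0.0499) and HLA-C at 0.45. HLA-F (1.19), TAP1 (0.35), B2M (0.12) and TAPBP (-0.07) did not pass.

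In bulk RNA-seq, levels are TPM, transcript shares that are corrected for transcript length. Fewer cells of a kind and less RNA per cell cannot be told apart in these values, and each condition had 1 library. On day 15, 8 of the 9 genes were highest, among the 4 libraries, in the SW620-TET2CD cells outside the colonies, as were 37.1% of genes at 1 TPM or more. HLA-B in SW620 was at 92.6 TPM inside and at 118 TPM outside, and in SW620-TET2CD at 64.3 and 189.9 TPM. PSMB9 was at 2.66 and 3.16 TPM in SW620 and at 3.21 and 11.0 TPM in SW620-TET2CD. TET2 itself in SW620-TET2CD was at 38.1 TPM inside and at 124 TPM outside, so the location and the transgene level cannot be told apart there.

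Outside against inside, 8 of the 9 genes were higher in SW620-TET2CD, as were 58.8% of genes, with a median log2 ratio of 0.75 against 0.07 over all genes at 1 TPM or more, and 4 were higher by at least 2-fold, as were 8.99% of genes. The folds were 3.42 for PSMB9, 2.95 for HLA-B, 2.45 for HLA-F, 2.38 for TAP1, 1.70 for HLA-E, 1.43 for B2M, 1.37 for PSMB8, 1.14 for HLA-C and 0.925 for TAPBP. Among related genes they were 0.861 for TAP2, 0.836 for PSMB10, 1.22 for PSME1 and 1.04 for PSME2. In SW620, 5 of the 9 were higher, with a median log2 ratio of 0.02 and none at 2-fold, against 45.2% of genes higher, a median of -0.025 and 3.01% at 2-fold. Over both lines, all 20 cycle genes had a positive log2 fold change outside (median 0.90, 18 with an unadjusted p under 0.05) and all 9 tested epithelial markers a negative one (median -0.35). Of 5 stromal and endothelial markers tested over both lines, 3 had a positive log2 fold change and 2 a negative one. The endothelial marker PECAM1 in SW620 was at 0.36 TPM inside and at 0.55 TPM outside, and in SW620-TET2CD at 0.30 and 5.06 TPM. In SW620-TET2CD the endothelial marker CDH5 was at 0.07 and 0.05 TPM and the stromal marker LUM at 6.06 and 1.55 TPM. The part of these genes in the difference was not tested. With the lines as the only replicates, no gene of 17722 passed the test of location, 1068 had an unadjusted p under 0.05, among them HLA-B, and DESeq2 called 22. HLA-B had a log2 fold change of 0.74 (SE 0.25, adjusted p = 0.772). Between the lines, 73 genes (0.412%) passed and none of the 9 did, by edgeR or by DESeq2. Of the 9, 1 (HLA-C, 0.27) had an unadjusted p under 0.05, as had 3536 of all 17722 genes. Leaving out a library meant dropping the location block, and without a SW620-TET2CD library the SW620 pair alone gave the spread, the lone library being assumed to vary like it. Without the inside library, 6 of the 9 were called, all higher in SW620-TET2CD (HLA-B at 0.61), as were 11.5% of genes (22.5% in either direction). Without the outside library, 2 of the 9 were called, HLA-B at -0.64 and B2M at -0.31, both lower, where 8.54% of genes were lower and 16.2% called in either direction.

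**Figure D5:**
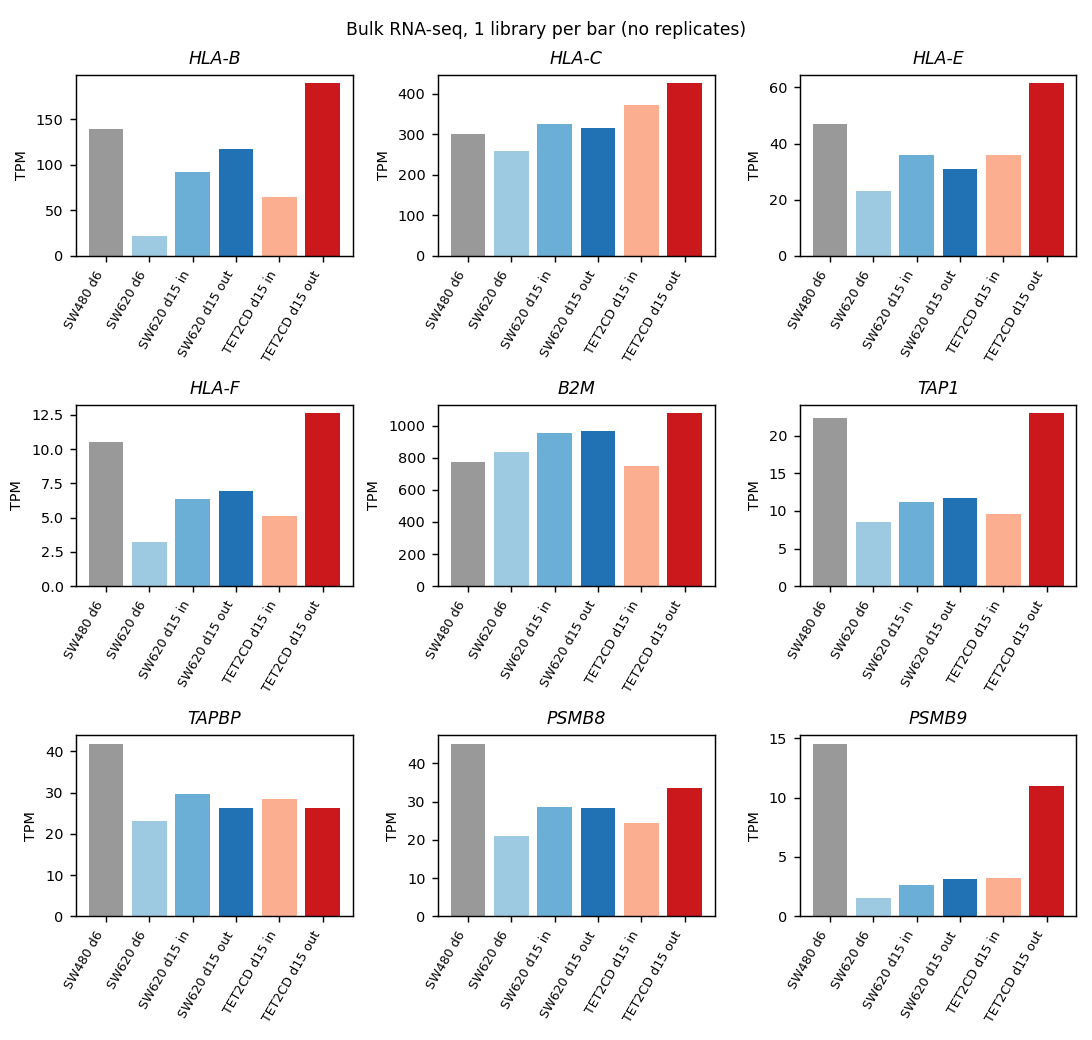
TPM of each of the 9 genes (vertical axes, from 0) in the 6 bulk libraries, with 1 bar per library and no error since each condition had 1. SW620-TET2CD cells outside the colonies have the highest bar of the 4 day-15 libraries for 8 genes, and SW480 exceeds SW620 on day 6 for 8 genes, against 37.1% and 50.1% of all genes.

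On day 6, SW480 was above SW620 for 8 of the 9 genes, against 50.1% of all genes, 6 of them by at least 2-fold, as were 20.1% of genes. Epithelial markers differed both ways, with VIL1 at 36.6 against 313 TPM and CDX2 at 42.3 against 3.21 TPM in SW480 against SW620. The stromal marker LUM was at 0.47 against 28.8 TPM, and the part of these markers was not tested. The folds of the 9 genes, as plain ratios of TPM, were 9.45 for PSMB9 (14.6 against 1.54 TPM), 6.31 for HLA-B (139 against 22.1 TPM), 3.29 for HLA-F, 2.63 for TAP1, 2.14 for PSMB8, 2.04 for HLA-E, 1.82 for TAPBP, 1.16 for HLA-C and 0.924 for B2M. Those of related genes were 1.03 for TAP2, 0.734 for PSMB10, 1.21 for PSME1 and 1.37 for PSME2. The PSMB9 value of SW620 rested on 17 expected counts, and its log2 ratio was 2.61 with a pseudocount of 1 and 3.16 with one of 0.1. From day 6 to day 15 in SW620, all 9 were higher inside (46.3% of all genes were) and all 9 outside (43.3%), with medians of 0.42 and 0.41 on the log2 scale against -0.05 and -0.08 over all genes. At least 2-fold were 2 of 9 inside (9.73% of genes) and 3 of 9 outside (8.20% of genes), and the 2 ratios share the day-6 library. Markers moved both ways from day 6 to day 15 inside and outside. CD68 went from 1.34 to 3.86 and 7.30 TPM, LYZ from 13.7 to 2.63 and 2.70, LUM from 28.8 to 10.2 and 10.8, and the cycle gene MKI67 from 56.6 to 11.3 and 15.2. Their part in the change of the 9 genes was not tested. HLA-B was higher 4.20-fold inside and 5.33-fold outside, HLA-F 2.00-fold and 2.17-fold, HLA-E 1.55-fold and 1.34-fold, and PSMB9 1.73-fold and 2.05-fold. PSMB9 per 100 of PSMB6, in TPM, was 4.10 in SW480 and 0.693 in SW620 on day 6, 1.34 and 1.74 inside and outside in SW620 on day 15, and 1.43 and 4.97 in SW620-TET2CD.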

How the data were processed

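Single-cell RNA-seq (10x 3′ libraries) gave 8 libraries and bulk RNA-seq 6, with 1 library per condition. The authors deposited UMI counts per gene and barcode, which the submitters' processing notes credit to Cell Ranger 4.0 and GRCh38. For bulk RNA-seq the authors deposited RSEM expected counts and TPM per gene. Their notes name Bowtie and mm10, although the identifiers are human Ensembl ones, and 45 copies of pseudoautosomal genes on the Y chromosome were left out.

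Kept cells had 1000 to 20000 UMIs, 200 to 4500 detected genes and a mitochondrial share of up to 10%, without calling doublets or removing free RNA. UMIs were summed per library, or per library and class of cells, and expected counts were rounded. Every p-value is from the two-sided quasi-likelihood test of edgeR 4.0.16 under R 4.3.3, after filterByExpr and TMM scaling. It was adjusted by Benjamini-Hochberg over the whole table and called under 0.05. Each SE was worked back from that test, as the absolute log2 fold change over the square root of its F statistic. Log2 ratios of TPM used a pseudocount of 1 and genes at 1 TPM or more. DESeq2 1.42.0, limma 3.58.1 on log2 TPM, other scaling, filters and cells, and each library left out were alternatives. For late against early days, libraries of days 6 and 9, or 12 and 15, stood in for replicates. The 4 days did so for the test of lines, and the libraries for the classes of cells. For the TET2 classes these libraries were the 4 days of SW620-TET2CD alone. In the bulk tests the other line or location took this place. The p-values therefore measure only the spread between these libraries, not between cultures. Intervals and the 3-count limit cover counting error only.

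The 9 genes and all lists were chosen with earlier results of these data known. Named beside them are TAP2, PSMB10, PSME1, PSME2, PSMB5, PSMB6, PSMB7, NLRC5, IRF1 and, per list and comparison, up to 4 genes past the threshold with the largest change and a mean of at least 8 CPM. The tests were checked on simulated data, where some genes were given a log2 change of 1 in either direction. Of these, 18% were recovered for line by time, 45% for bulk location and 63% for late against early days. In the other comparisons simulated, 81% to 100% were recovered. Apart from the given change, each simulated gene had the same mean share in all libraries and a spread typical of its level. Recovery may be lower for genes that vary more, or whose change differs between days. Some items are not reported here.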

Additional observations from a re-analysis of the deposited data

Results flagged for a closer look

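The effect of having a TET2 UMI differed between the lines for 5 of the 9 genes in a test added after the data had been seen. Of all 15178 genes tested, 5.20% were called and 3.56% were more positive in SW620-TET2CD. The log2 difference, SW620-TET2CD minus SW620, was 1.26 for HLA-B, 1.29 for PSMB9, 0.65 for HLA-E, 0.48 for PSMB8 and 0.45 for HLA-C. SW620 had only 124 to 184 cells with a TET2 UMI per library.

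In bulk RNA-seq of day 15, the ratio of cells outside to cells inside the colonies had opposite signs in the 2 lines for 3 genes, with 1 library on each side. Among all genes at 1 TPM or more, 45.2% were higher outside in SW620 and 58.8% in SW620-TET2CD. The share of all genes with opposite signs was not counted. The log2 ratio was -0.046 in SW620 and 0.19 in SW620-TET2CD for HLA-C, -0.20 and 0.75 for HLA-E, and -0.0044 and 0.44 for PSMB8, whose SW620 value lies within its counting error of 0. The difference between the lines was not tested.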

How the results depend on the processing

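With 1 library per condition and days or lines in place of replicates, the call of 5 genes between late and early days held in direction under all 18 alternatives for HLA-B, HLA-E, HLA-F, PSMB8 and PSMB9, and 4 to 6 of the 9 genes were called with each library left out, where 48.2% to 60.4% of all genes were. Where a direction changed below, the cause was not tested.

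Between late and early days, HLA-C was at -0.0022 with DESeq2, -0.047 without the low-count filter, -0.0011 over every barcode, -0.11 in cells with 0 cycle UMIs and -0.063 for day 15 against day 6, and -0.067 to 0.10 with each library left out. TAP1 was at -0.032 without the filter, -0.028 in cells with 0 cycle UMIs, -0.034 for day 15 against day 6 and -0.029 to 0.086 with each left out. Between the lines in single cells, HLA-B was at -0.23, HLA-E at -0.16 and PSMB9 at -0.26 in cells with 0 TET2 UMIs. HLA-E was at -0.0056 over every barcode and -0.10 without the day block, HLA-F at 0.0034 with DESeq2 and 0.038 with upper-quartile factors, TAP1 at 0.0076 with upper-quartile factors and 0.047 over every barcode, and PSMB9 at -0.29 in cells with 0 cycle UMIs. With each library left out the ranges were -0.13 to 0.083 for HLA-C, -0.15 to 0.11 for HLA-E, -0.034 to 0.053 for HLA-F, -0.087 to 0.069 for TAP1, -0.11 to 0.051 for TAPBP, -0.15 to 0.063 for PSMB8 and -0.014 to 0.37 for PSMB9.

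In bulk RNA-seq, 1 of the 9 genes (HLA-B) passed for location without the low-count filter, as did 1.5% of genes, and leaving out each library gave -0.11 to 0.21 for HLA-C, -0.19 to 0.69 for HLA-E, 0.46 to 1.02 for HLA-B, 0.14 to 1.1 for HLA-F, 0.17 to 1.0 for TAP1 and 0.18 to 1.88 for PSMB9. Between the lines, HLA-B was at -0.0065 with DESeq2, -0.013 with upper-quartile factors and -0.013 without the filter, and PSMB8 was at 0.0095 with limma. Leaving out each library gave -0.64 to 0.61 for HLA-B, -0.52 to 0.90 for HLA-F, -0.31 to 0.069 for B2M, -0.19 to 0.89 for TAP1, -0.11 to 0.065 for TAPBP and -0.25 to 0.12 for PSMB8. For hypoxia classes DESeq2 called 2 of the 9, as it did 17.3% of all genes. With each library left out 0 to 2 were called, where 2.45% to 13.6% of all genes were. For cycling cells TAP1 was at 0.033 with at least 10 cycle UMIs and at -0.11 to 0.063 with each left out. For TET2 classes TAPBP was at 0.014 with at least 1 TET2 UMI and at -0.16 to 0.065 with each left out.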

Other observations

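Over the 8 single-cell libraries, 10 genes outside the list followed the mean of the 9 genes most closely by Pearson's r of log2 CPM, among 8710 genes with a mean of at least 8 CPM. They were AC104958.2 (r = 0.995), CITED4 (0.994), CES2 (0.994), IL10RB (0.993), NUCB1 (0.993), TSPAN31 (0.992), CCNI (0.990), EPS8L2 (0.990), ZMIZ1 (0.990) and TPT1 (0.989). Each of the 9 is part of that mean, which raises its own r, so these are not comparable with those of outside genes. Of the 9, HLA-B was closest to their mean (0.995), TAP1 (0.655) and HLA-C (0.514) were the farthest, and outside the list PSMB10 was at -0.95 and TAP2 at -0.96. The libraries of a day share their culture age and those of an age share a low or high share of cycling cells, so these values are descriptions.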
